A study of Mus musculus with 4 samples.

Results

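Eosinophils, basophils and mast cells are the granulocytes of allergic and antiparasite responses. The genes described here are 10 that encode their granule proteins, enzymes and receptors: 6 of eosinophils (Epx, Prg2, Prg3, Alox15, Il5ra and Ccr3) and 4 of basophils and mast cells (Mcpt8, Cpa3, Fcer1a and Ms4a2). They were taken by name, and all probe sets annotated to exactly 1 of them were used, 11 of the 45101 on the array. Every member had a probe set, and Ms4a2 had more than 1. All 10 genes passed the filter on low signals, among 14012 genes that did so out of 18193 measured.

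The study set leukemic mouse bone marrow beside normal marrow, with 1 array per group and 4 arrays in all. The mixed lineage leukemia arose from hematopoietic stem and precursor cells that had been transduced with both AF4-MLL and MLL-AF4, the 2 reciprocal fusions of the histone methyltransferase MLL and the elongation factor AF4. A proB acute lymphoid leukemia (proB ALL) and a biphenotypic one with B and T features (B/T BAL) arose from such cells transduced with AF4-MLL alone, and the last array held normal bone marrow cells. Per the labels, leukemic marrow was taken from moribund C57BL6 mice some months later, and the cells were typed by flow cytometry without sorting. The labels do not state ages, nor whether a leukemia was 1 clone or an array 1 mouse.

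The arrays did not all match their labels by lineage markers. On the array labelled proB ALL all 8 measurable B-lineage markers were at least 2-fold lower than in normal marrow, against 18.7% of all genes tested. All 7 cytotoxic cell markers were at least 2-fold higher there, against 1582 of 14012 genes. On the B/T BAL array all 7 T-lineage markers were higher, against 2159 genes, and all 8 B-lineage markers lower, against 17.7%. On the mixed lineage array 6 of the 8 B-lineage markers were lower as well, against 15.2%. Below, proB ALL names that array by its label. The neutrophil markers had summed signals of 732827 on the mixed lineage array, 132167 on the proB ALL array and 417745 on the B/T BAL array, against 453109 in normal marrow. Of all probe sets, 46.4% to 57.5% lay above the floor (189, the median of all signals without controls), the highest share on the mixed lineage array, whose 2nd percentile of signals was 20.4 against 2.88 to 3.97 on the other arrays. Among the lineage markers, Ebf1, Igll1 and Vpreb1 were above the floor in normal marrow alone, Gzmb in proB ALL alone, and Cd4 and Ptcra in B/T BAL alone. They passed the filter through that array, which fixed their direction. The 3' to 5' ratio of the Actb control probe sets, a measure of RNA quality, was 2.47 to 4.72 in the leukemias and 1.87 in normal marrow. The part of these array differences in the results below was not tested.

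As background, both kinds of granulocyte arise in the marrow from progenitors that use GATA transcription factors. Eosinophils mature under interleukin 5 and fill their granules with a peroxidase and with basic proteins that damage parasites. Basophils and mast cells store proteases and histamine and carry the high-affinity receptor for immunoglobulin E, whose crosslinking by antigen empties the granules.

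To show the sequence context of both gene groups, the 250 bases before the RefSeq start of 4 members are printed (RefSeq, GRCm38.p6, each 5' to 3' on the gene's own strand), 1 gene of each group without and 1 with the letters AGATAA, a motif bound by GATA factors. Capitals mark AGATAA or, where the motif lies on the opposite strand, TTATCT. 
Epx (chr11:87875537-87875786, minus strand): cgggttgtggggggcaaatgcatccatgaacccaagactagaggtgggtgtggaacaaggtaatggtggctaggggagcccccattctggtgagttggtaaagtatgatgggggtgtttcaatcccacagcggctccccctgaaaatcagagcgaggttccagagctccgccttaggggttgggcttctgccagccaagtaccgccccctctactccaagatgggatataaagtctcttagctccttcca
Ccr3 (chr9:124021721-124021970, plus strand): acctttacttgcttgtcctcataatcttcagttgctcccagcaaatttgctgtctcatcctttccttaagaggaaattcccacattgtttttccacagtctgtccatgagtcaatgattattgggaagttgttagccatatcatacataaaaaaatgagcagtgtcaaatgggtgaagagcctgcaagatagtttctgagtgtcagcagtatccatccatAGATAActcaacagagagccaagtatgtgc
Mcpt8 (chr14:56085198-56085447, minus strand): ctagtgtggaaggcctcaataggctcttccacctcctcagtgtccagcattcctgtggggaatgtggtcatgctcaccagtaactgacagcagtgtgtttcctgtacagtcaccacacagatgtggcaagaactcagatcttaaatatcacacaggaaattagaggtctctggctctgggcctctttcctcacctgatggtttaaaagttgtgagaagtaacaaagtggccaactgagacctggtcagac
Ms4a2 (chr19:11623720-11623969, minus strand): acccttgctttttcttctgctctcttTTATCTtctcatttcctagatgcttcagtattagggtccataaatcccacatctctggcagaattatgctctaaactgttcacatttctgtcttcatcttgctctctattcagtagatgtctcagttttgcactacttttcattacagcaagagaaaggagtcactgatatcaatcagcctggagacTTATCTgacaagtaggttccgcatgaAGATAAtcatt

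The promoter table held 8 of the 10 members, all but Prg2 and Alox15. The motif, searched on both strands, was in 5 of these 8 windows (Il5ra, Ccr3, Cpa3, Fcer1a and Ms4a2) and in 9.99% of 32851 windows of the same length. In Ccr3 it began 30 bases before the start. Ms4a2 held it at 3 places, beginning 224, 37 and 11 bases before the start. The windows of Epx, Prg3 and Mcpt8 did not hold these letters. A match in a window is a description of the letters and not a measured binding site.

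The 2 gene groups differed in how they lay across the leukemias. On each of the 3 leukemia arrays all 6 eosinophil genes lay at least 2-fold below normal marrow, whereas 4.45% of all genes tested were. Of the 6, 4 (Epx, Prg3, Il5ra and Ccr3) were above the floor in normal marrow alone and passed the filter through that array, which fixed their direction, so the count is a description and is not read against that share. In mixed lineage leukemia all 4 basophil and mast cell genes lay at least 2-fold above normal marrow, against 18.8% of all genes tested, and all 4 were at least 2-fold lower in proB ALL, against 18.7%. In B/T BAL 3 of the 4 were at least 2-fold lower, against 17.7%. Here and below, a 2-fold difference is one of 1 on the scale log2(signal + 51.4), signals at or below 189 count as under the floor, and a fold whose dimmer side is under the floor takes the floor in its place and is written "at least". Fewer cells of a type and less RNA per cell cannot be told apart in unsorted marrow.

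**Figure D1:**
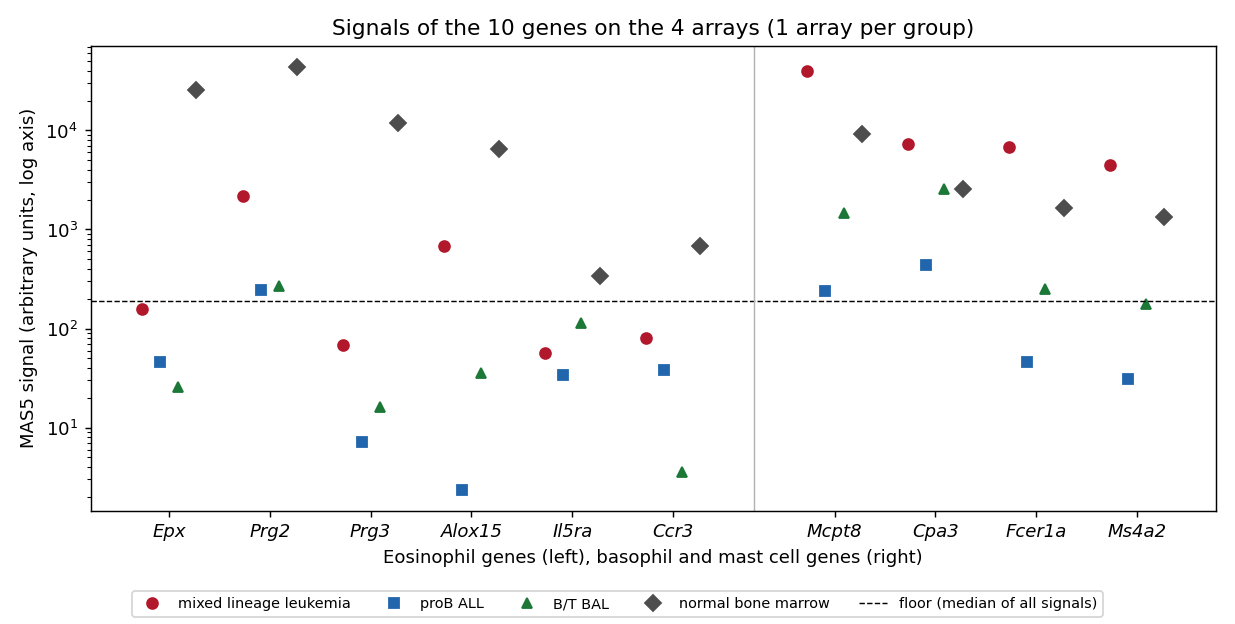
MAS5 signals (log axis) of the 6 eosinophil genes (left) and the 4 basophil and mast cell genes (right), with 1 point per array and gene and a dashed line at the floor of 189. Normal marrow is highest for each eosinophil gene, and mixed lineage leukemia is highest for each basophil and mast cell gene.

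Among the eosinophil genes, the granule proteins are given first. Epx, the eosinophil peroxidase, had signals of 156 on the mixed lineage array, 46.3 on the proB ALL array and 25.9 on the B/T BAL array, against 25742 on the normal marrow array. All 3 leukemia signals lay under the floor, so that Epx was at least 136-fold lower on each. Prg3, a close relative of major basic protein, had 68.9 with mixed lineage leukemia, 7.15 with proB ALL and 16.0 with B/T BAL, against 11783 in normal marrow, at least 62.5-fold lower on each. Prg2, the major basic protein itself, had 2186 with mixed lineage leukemia, 248 with proB ALL and 267 with B/T BAL, against 43661 in normal marrow. It was thus above the floor on every array, 20.0-fold lower in mixed lineage leukemia, 176-fold lower in proB ALL and 164-fold lower in B/T BAL.

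Among the genes above the floor on both arrays compared, Prg2 had the lowest difference of all 9617 in proB ALL and of all 9904 in B/T BAL. In mixed lineage leukemia it ranked 10010 of 10043 from the highest. Prg2 and Prg3 are next to each other on chromosome 2 in the RefSeq gene table. In mixed lineage leukemia Prg2 was above the floor and Prg3 was not.

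Alox15, the 12/15-lipoxygenase that oxidises arachidonic and linoleic acid and that macrophages can also express, had 681 on the mixed lineage array, 2.36 on the proB ALL array and 36.0 on the B/T BAL array, against 6542 on the normal marrow array. It was 9.61-fold lower in mixed lineage leukemia and at least 34.7-fold lower in the other two. Ccr3, the eotaxin receptor that guides eosinophils into tissue, had 80.9 on the mixed lineage array, 37.8 on the proB ALL array and 3.53 on the B/T BAL array, against 683 on the normal marrow array, at least 3.62-fold lower on each. Il5ra, the chain of the interleukin 5 receptor that gives it its specificity, had 56.9 with mixed lineage leukemia, 34.1 with proB ALL and 114 with B/T BAL, against 337 in normal marrow. The Il5ra signal in normal marrow was only 1.79-fold above the floor, which is the most that its fold could be shown to reach. With signals under the floor raised to it, Il5ra was no longer 2-fold lower (log2 difference -0.70 on each leukemia array), and with the pseudocount at the 50th percentile its difference in B/T BAL was -0.80.

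In log2 differences from normal marrow, the 6 eosinophil genes had a median of -3.73 on the mixed lineage array, -7.06 on the proB ALL array and -6.67 on the B/T BAL array. The medians over all genes tested were 0.08, -0.11 and 0.05 on those arrays. Of the 6, 4 were above the floor in normal marrow alone, which fixed their direction, so the eosinophil medians are not read against those. Most of the eosinophil differences rest on leukemia signals under the floor, so their size and their order among genes depend on the pseudocount. In proB ALL the difference of Epx was -8.04, against -9.09 with a pseudocount of 1 and -6.75 with signals under the floor raised to it. That of Alox15 was -6.94, against -10.93 and -4.78 under the same settings, and that of Prg2, above the floor on every array, was -7.19, against -7.46 and -7.19. At least 2-fold lower in mixed lineage leukemia were 15.2% of all genes tested. The 3 comparisons share 1 normal marrow array.

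**Figure D2:**
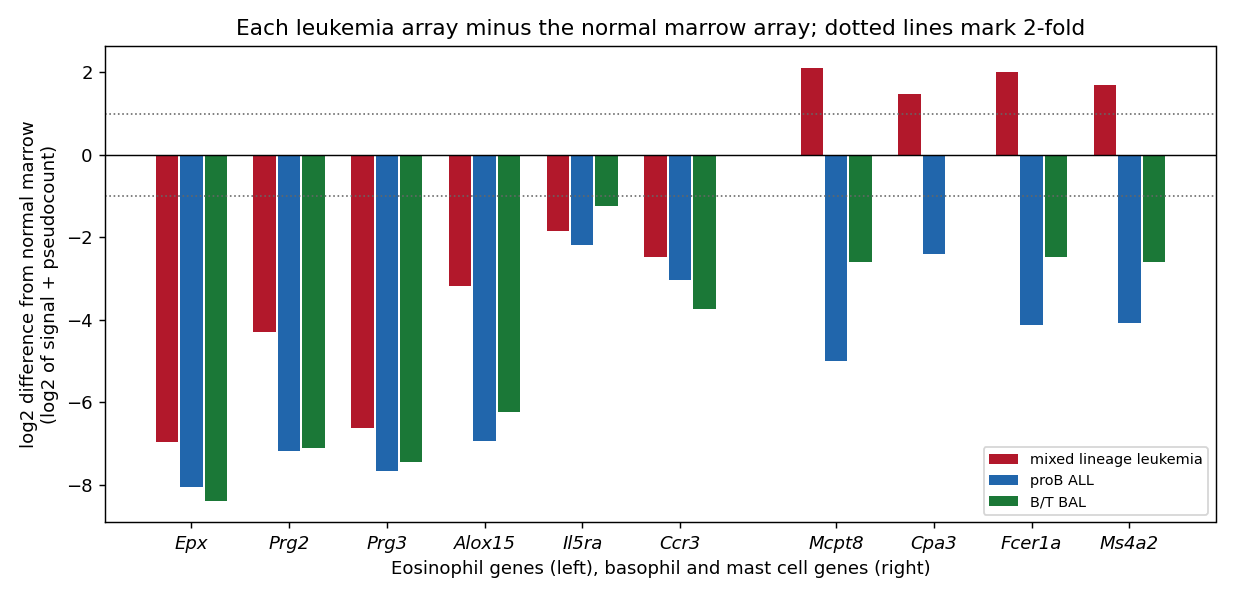
Log2 difference of each leukemia array from the normal marrow array, on log2(signal + 51.4), for the 10 genes, with dotted lines at 2-fold in either direction and 1 bar per array. All 18 eosinophil bars point down past 2-fold, and the basophil and mast cell bars point up in mixed lineage leukemia and down in proB ALL.

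Leukemia as a whole was compared with normal marrow by limma, 3 arrays against 1, over all genes tested. No gene passed an adjusted p of 0.05 as lower (0% of genes tested) or as higher, while 369 genes were lower and 44 higher at an unadjusted p under 0.05. At the lowest adjusted p reached, 0.0702, limma held 17 genes, Epx and Prg3 among them, but also erythroid, platelet and B-lineage markers such as Alas2, Klf1, Ppbp and Vpreb1. Epx and Prg3 had log2 differences of -7.79 ± 0.91 (Epx, SE) and -7.25 ± 0.95 (Prg3, SE) in limma. Prg2 had -6.19 ± 1.19 (SE, limma adjusted p = 0.226), Alox15 -5.45 ± 1.44 (SE, limma adjusted p = 0.618), and Ccr3 and Il5ra -3.09 ± 1.14 and -1.75 ± 1.09 (SE, limma adjusted p = 1 each). Each of the 6 was lower on 3 of 3 leukemia arrays. Epx, Prg3, Il5ra and Ccr3 were above the floor in normal marrow alone and passed the filter through that array, which fixed their direction. Their SEs rest on leukemia signals under the floor, so their limma results are descriptions. Leaving out 1 leukemia left 1 residual degree of freedom, so effect sizes alone are given for those fits. Whether limma called Epx, Prg2, Prg3 and Alox15 there depended on which leukemia was left out. Without mixed lineage, without proB ALL and without B/T BAL, the log2 difference of Epx was -8.21, -7.67 and -7.50. In that order, Prg2 had -7.15, -5.70 and -5.74, Prg3 -7.56, -7.04 and -7.14, and Alox15 -6.59, -4.70 and -5.05. With all 4 arrays kept, Epx and Prg3 passed in limma only with robust eBayes and with the pseudocount at the 50th percentile. Over all alternatives the limma log2 difference of Epx ranged from -8.78 (pseudocount of 1) to -6.65 (pseudocount at the 50th percentile). The spread in this test is that between leukemias of different immunophenotype, and the lone normal array is assumed to vary like them.

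Of the 6 eosinophil genes, Prg2 and Alox15 alone were above the floor in mixed lineage leukemia, and which cells gave these signals was not tested. Prg2 was 8.82-fold higher there than in proB ALL and 8.19-fold higher than in B/T BAL, and Alox15 was at least 3.61-fold higher than in either. The other 4 eosinophil genes were under the floor on all 3 leukemia arrays, so no fold between leukemias is given for them. In limma, mixed lineage leukemia against both leukemias with AF4-MLL alone gave 0% of genes tested as higher at an adjusted p of 0.05 and 0 as lower, with 1726 higher and 767 lower at an unadjusted p under 0.05. In that comparison, which has 1 residual degree of freedom, Alox15 had a log2 difference of 3.42 ± 0.62 and Prg2 one of 2.86 ± 0.77 (SE, limma). Both Alox15 signals with AF4-MLL alone were under the floor, so its SE rests in part on such signals.

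Other genes of eosinophils could be followed only in part, since 5 of 12 listed, all of them Ear ribonucleases, lack a probe set named for 1 gene alone and are not analysed here. Of the 7 measured, 4 were above the floor on some array. Of these, 2 (Siglecf and Adora3) were at least 2-fold lower in every leukemia, where 4.45% of all genes tested were. Adora3 was above the floor in normal marrow alone and passed the filter through that array, which fixed its direction. The count is thus not read against that share. Siglecf, a sialic acid receptor of mouse eosinophils, had 851 with mixed lineage leukemia, 52.4 with proB ALL and 36.4 with B/T BAL, against 1863 in normal marrow. Its log2 differences from normal marrow were -1.09 on the mixed lineage array, -4.21 on the proB ALL array and -4.45 on the B/T BAL array. Adora3, an adenosine receptor, had 55.0 on the mixed lineage array, 109 on the proB ALL array and 180 on the B/T BAL array, against 470 on the normal marrow array. Ccl9, a chemokine that other myeloid cells also make, lay above normal marrow in mixed lineage leukemia alone, with 23041 there, 1381 on the proB ALL array and 3033 on the B/T BAL array, against 5424 in normal marrow. Ccl6, another chemokine of myeloid cells, had 28496 with mixed lineage leukemia, 2141 with proB ALL and 3757 with B/T BAL, against 17372 in normal marrow, with a log2 difference of 0.71 in mixed lineage leukemia.

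Erythroid, megakaryocyte and B-lineage markers are set here because most of them were also low in every leukemia. All 9 measured erythroid markers lay at least 2-fold below normal marrow in every leukemia, with summed signals of 1797 on the mixed lineage array, 1352 on the proB ALL array and 3386 on the B/T BAL array, against 213013 on the normal marrow array. Of 6 megakaryocyte markers 4 were so on all 3 arrays, with summed signals of 4013 with mixed lineage leukemia, 4286 with proB ALL and 3193 with B/T BAL, against 36366 in normal marrow. Of 8 B-lineage markers 6 were so on all 3 arrays, where 4.45% of all genes tested were. Car1, Epb42, Ebf1, Igll1 and Vpreb1 were above the floor in normal marrow alone, which fixed their direction. These counts are thus descriptions and are not read against that share. No marker of these lists had a signal of 0. The summed signal of the 6 eosinophil genes was 3229 with mixed lineage leukemia, 375 with proB ALL and 462 with B/T BAL, against 88748 in normal marrow. The part of erythroid, megakaryocyte and B-lineage cells in the eosinophil result was not tested.

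The basophil and mast cell genes had a different order of arrays, with mixed lineage leukemia first. Mcpt8, a serine protease of mouse basophils, had 39892 on the mixed lineage array, 238 on the proB ALL array and 1478 on the B/T BAL array, against 9174 on the normal marrow array. It was 4.35-fold higher in mixed lineage leukemia, 38.6-fold lower in proB ALL and 6.21-fold lower in B/T BAL than in normal marrow. Among genes above the floor on both arrays, its difference in mixed lineage leukemia ranked 57 of 10043 from the highest, and in proB ALL it ranked 9603 of 9617.

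The 2 chains that are specific to the high-affinity immunoglobulin E receptor ran in parallel. Fcer1a, the chain that binds immunoglobulin E, had 6821 with mixed lineage leukemia, 45.8 with proB ALL and 252 with B/T BAL, against 1645 in normal marrow. It was 4.15-fold higher in mixed lineage leukemia, at least 8.72-fold lower in proB ALL and 6.52-fold lower in B/T BAL. Ms4a2, the beta chain that amplifies the receptor's signal, had 4455 on the mixed lineage array, 30.8 on the proB ALL array and 176 on the B/T BAL array, against 1338 on the normal marrow array. Its folds were 3.33 higher in mixed lineage leukemia and at least 7.10 lower in each of the other two. The second probe set of Ms4a2 had 633 with mixed lineage leukemia, 35.1 with proB ALL and 36.5 with B/T BAL, against 209 in normal marrow, 3.03-fold higher in mixed lineage leukemia and at least 1.11-fold lower in the others. Both probe sets of Ms4a2 thus gave the same order for mixed lineage leukemia over normal marrow over the others.

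Fcer1g, the gamma chain that this receptor shares with other immunoglobulin receptors of myeloid and killer cells, did not follow. It had 50214 on the mixed lineage array, 24988 on the proB ALL array and 8587 on the B/T BAL array, against 26812 on the normal marrow array, and its log2 difference from normal marrow was -0.10 in proB ALL, where those of Fcer1a and Ms4a2 were -4.12 and -4.08.

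Cpa3, the carboxypeptidase of mast cell granules, which blood progenitors and basophils also express, stood apart from the other 3 in B/T BAL. It had 7222 with mixed lineage leukemia, 440 with proB ALL and 2567 with B/T BAL, against 2559 in normal marrow. Its signal was 2.82-fold higher in mixed lineage leukemia and 5.82-fold lower in proB ALL, while in B/T BAL the log2 difference from normal marrow was 0.00 and turned to -0.033 with arrays scaled to the 75th percentile. The other 3 genes had log2 differences between -2.61 and -2.48 on that array.

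In all, the 4 basophil and mast cell genes had median log2 differences from normal marrow of 1.86 on the mixed lineage array, -4.10 on the proB ALL array and -2.54 on the B/T BAL array. Mixed lineage leukemia was at least 2-fold above each of the other 3 arrays for 4 of the 4 genes, against 11.5% of all genes tested, and for 0 of the 6 eosinophil genes. Mcpt8, Fcer1a and Ms4a2 were at least 2-fold higher in mixed lineage leukemia and at least 2-fold lower in both proB ALL and B/T BAL than in normal marrow, as were 1.37% of all genes tested. Between leukemias, Mcpt8 was 168-fold higher in mixed lineage leukemia than in proB ALL and 27.0-fold higher than in B/T BAL. Fcer1a was at least 36.2-fold and 27.1-fold higher, Ms4a2 at least 23.6-fold higher in both pairs, and Cpa3 16.4-fold and 2.81-fold higher.

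**Figure D3:**
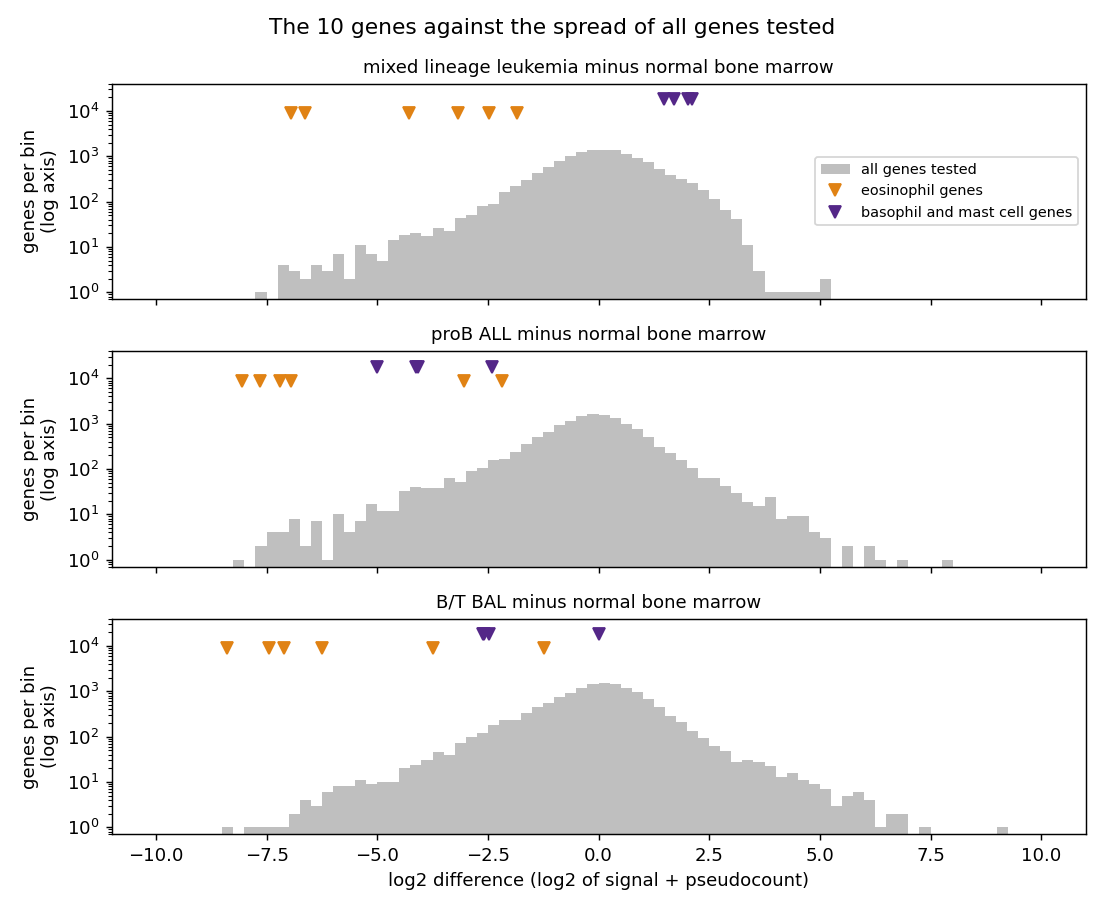
Number of genes (log axis) by log2 difference from normal marrow on each leukemia array, for all 14012 genes tested in grey, with triangles for the 6 eosinophil genes and the 4 basophil and mast cell genes at heights that carry no value. The basophil and mast cell genes lie above 1 in mixed lineage leukemia and below -2 in proB ALL, and the eosinophil genes lie below -1 in all 3 panels.

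Limma called none of these 4 genes. With AF4-MLL alone both Ms4a2 signals were under the floor, and so was that of Fcer1a in proB ALL. Their SEs below rest in part on such signals. In mixed lineage leukemia against both AF4-MLL leukemias, Mcpt8 had a log2 difference of 5.91 ± 1.07, Fcer1a of 5.32 ± 1.0 and Ms4a2 of 5.04 ± 0.98 (SE, limma adjusted p = 0.151 each). Cpa3 had 2.68 ± 1.08 (SE, limma adjusted p = 0.295). An adjusted p of 0.151 was the lowest reached in this comparison, by 522 genes. Between all 3 leukemias and normal marrow, where the arrays point in opposite directions, the 4 genes had limma log2 differences between -1.82 (Mcpt8) and -0.31 (Cpa3) and adjusted p-values of 1.

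Of 18 further basophil and mast cell genes, 16 had a probe set and 11 lay above the floor on some array. In mixed lineage leukemia 5 of the 11 lay at least 2-fold above normal marrow and 0 below it by as much. Of all genes tested, 18.8% lay above it and 15.2% below. Cd200r3, Tpsb2 and Tpsg1 were above the floor on the mixed lineage array alone and passed the filter through it, which fixed their direction. The count is thus a description and is not read against that share. Of these 5, Tpsb2 and Tpsg1 were dim, at least 1.31-fold (Tpsb2) and 1.15-fold (Tpsg1) higher against the floor. Hdc, the enzyme that makes histamine, had 10445 on the mixed lineage array, 112 on the proB ALL array and 527 on the B/T BAL array, against 3561 on the normal marrow array. Il4, a cytokine that basophils release, had 631 on the mixed lineage array, 33.1 on the proB ALL array and 79.6 on the B/T BAL array, against 251 on the normal marrow array. Both AF4-MLL signals of Il4 were under the floor, so it was at least 1.33-fold lower on each. Cd200r3, an activating receptor of mouse basophils and mast cells, had 626 with mixed lineage leukemia, 1.74 with proB ALL and 3.15 with B/T BAL, against 166 in normal marrow, where it was under the floor. Hdc and Il4 were highest in mixed lineage leukemia and next in normal marrow, as Mcpt8 was, and Cd200r3 was above the floor in mixed lineage leukemia alone. In proB ALL 4 of the 11 were lower and 2 higher, against 2623 and 1582 of all 14012 genes tested. In B/T BAL 7 were lower and 1 higher, against 2474 and 2159 of them. The 2 higher in proB ALL, Cma1 and Gzmb, were above the floor on that array alone, which fixed their direction. The differences of Cd200r3 in both, and of Gzmb and Tpsg1 in B/T BAL, lay between signals under the floor.

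Proteases of tissue mast cells were low on nearly all arrays. Mcpt1, Mcpt2, Mcpt4 and Tpsab1 were under the floor on all 4 arrays. Tpsb2 and Tpsg1 reached 246 and 218 in mixed lineage leukemia and were under the floor elsewhere. Cma1, a mast cell chymase, had 793 in proB ALL and was under the floor on the other 3 arrays. Kit, the receptor for stem cell factor on mast cells and progenitors, had 2061 with mixed lineage leukemia, 1366 with proB ALL and 201 with B/T BAL, against 2413 in normal marrow, an order unlike that of the 4 members. Gzmb, which mast cells share with killer cells, was above the floor in proB ALL alone, at 26953.

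The markers of other myeloid cells beside these values were as follows. Of 12 neutrophil markers, 0 were at least 2-fold higher in mixed lineage leukemia than in normal marrow and 0 lower, with a median log2 difference of 0.65. Of all genes tested, 18.8% were higher and 15.2% lower there. In proB ALL 10 of the 12 were 2-fold lower or more, against 18.7% of all genes tested, their median being -2.80. In B/T BAL 6 were, against 17.7%, with a median of -1.21. Of 11 monocyte and macrophage markers, 4 were higher and 2 lower in mixed lineage leukemia, against 18.8% and 15.2% of all genes tested. The lower count lies near its share and is not read as a result. Their summed signals were 95344 on the mixed lineage array, 27474 on the proB ALL array and 16503 on the B/T BAL array, against 58012 on the normal marrow array. No marker of either list had a signal of 0. The part of these cells in the basophil and mast cell result was not tested.

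Receptor chains and transcription factors of the granulocyte pathway were set beside the members. Csf2rb, the beta chain through which Il5ra signals and which the receptors for interleukin 3 and GM-CSF also use, had 20156 with mixed lineage leukemia, 3218 with proB ALL and 3666 with B/T BAL, against 10433 in normal marrow. Its gap in mixed lineage leukemia was under 2-fold on the log2 scale (0.95), and 0 of the 4 receptor chains listed passed 2-fold there in either direction. In proB ALL 3 of the 4 were at least 2-fold lower, against 18.7% of all genes tested, and in B/T BAL 2 were, against 17.7%.

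Gata1, a GATA factor that red cell precursors and eosinophils both need, had 332 on the mixed lineage array, 63.8 on the proB ALL array and 326 on the B/T BAL array, against 9009 on the normal marrow array. It was low on all 3 leukemia arrays, as the eosinophil genes were. In mixed lineage leukemia it was low where the 4 basophil and mast cell genes were higher. A link of Gata1 to either gene group was not tested. Zfpm1, its partner protein, had 282 on the mixed lineage array, 1025 on the proB ALL array and 1530 on the B/T BAL array, against 5931 on the normal marrow array. Gata2, a GATA factor of mast cells, basophils and stem cells, had 2925 with mixed lineage leukemia, 285 with proB ALL and 532 with B/T BAL, against 1270 in normal marrow, the same order as Mcpt8. Spi1, a factor of most myeloid cells, shared that order with 7257 with mixed lineage leukemia, 612 with proB ALL and 1208 with B/T BAL, against 3444 in normal marrow. Mitf, a mast cell factor, had 727 on the mixed lineage array, 156 on the proB ALL array and 55.2 on the B/T BAL array, against 516 on the normal marrow array, and its gap in mixed lineage leukemia was under 2-fold. Of the 14 measured factors, 4 were at least 2-fold higher and 3 lower in mixed lineage leukemia, against 18.8% and 15.2% of all genes tested. The factor counts on that array lie near those shares and are not read as a result. In proB ALL 1 was higher and 7 lower, against 1582 and 2623 of the 14012 genes tested. In B/T BAL 3 were higher and 8 lower, against 2159 and 2474 of them. Limma called 0 genes of these lists between leukemia and normal marrow.

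Among lipoxygenases related to Alox15, Alox5, which starts leukotriene synthesis in many myeloid cells, had 9126 on the mixed lineage array, 285 on the proB ALL array and 888 on the B/T BAL array, against 4123 on the normal marrow array, and so was 2.21-fold higher in mixed lineage leukemia where Alox15 was 9.61-fold lower. Alox12 and Alox12e, which lie beside Alox15 on chromosome 11 in the RefSeq gene table, were lower on each leukemia array. Alox12, the lipoxygenase of platelets, had 192 with mixed lineage leukemia, 103 with proB ALL and 164 with B/T BAL, against 920 in normal marrow. Alox12e had 309 on the mixed lineage array, 49.4 on the proB ALL array and 189 on the B/T BAL array, against 736 on the normal marrow array.

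**Figure D4:**
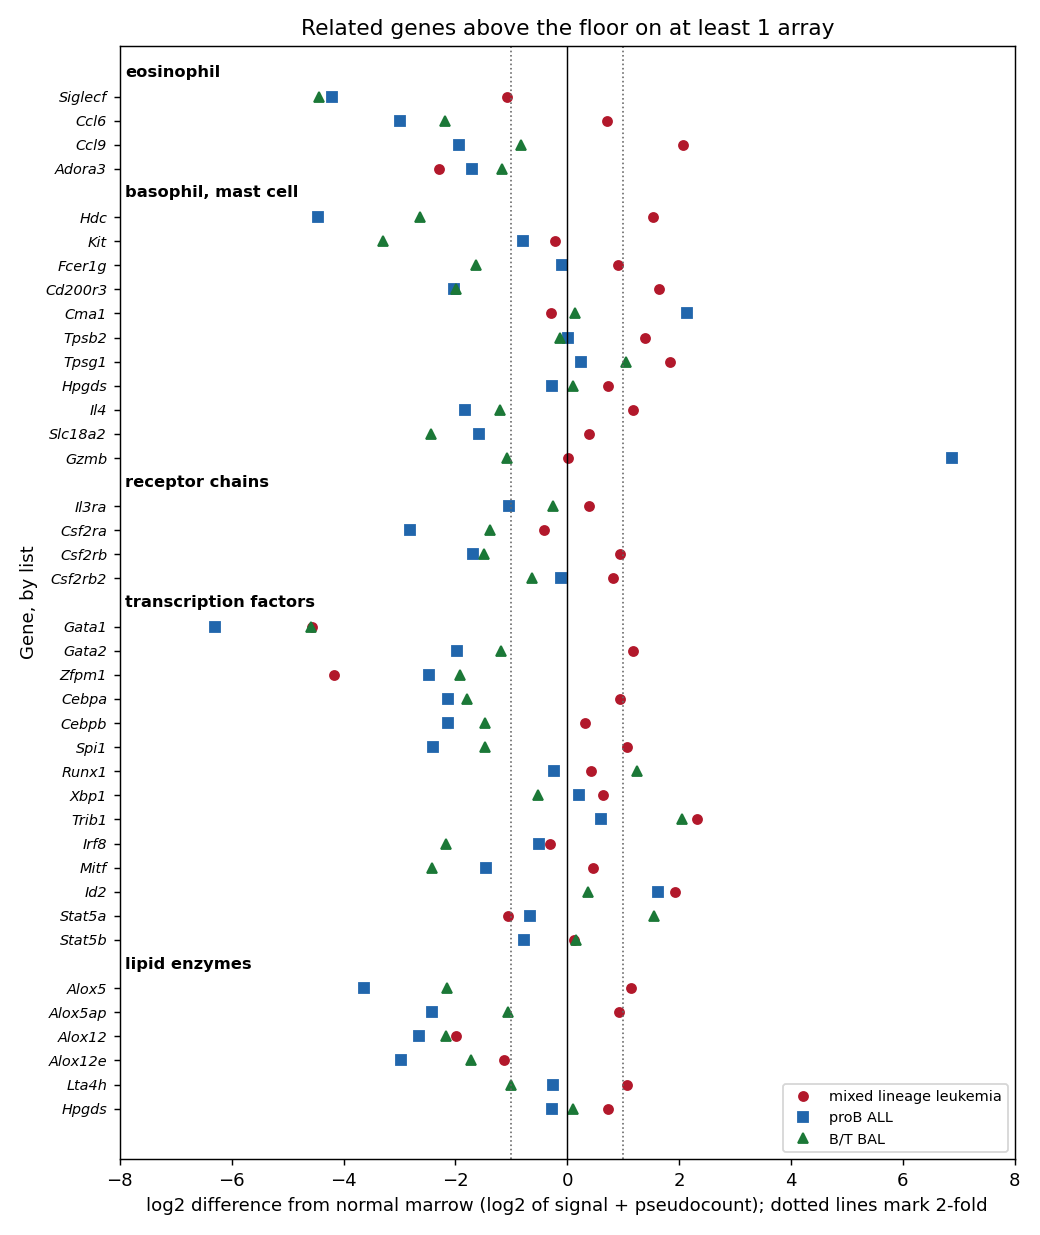
Log2 difference from normal marrow, on log2(signal + 51.4), of related genes above the floor on at least 1 array, by list, with 1 point per leukemia array and dotted lines at 2-fold. Gata1 and Siglecf lie left of the lower line on every leukemia array, and Hdc, Il4 and Gata2 lie right of the upper line in mixed lineage leukemia and left of the lower line in proB ALL and B/T BAL.

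Epx lies 3 coding genes from Mpo, the peroxidase of neutrophil precursors, in the RefSeq gene table. Mpo had 60520 with mixed lineage leukemia, 4035 with proB ALL and 12934 with B/T BAL, against 43969 in normal marrow, whereas Epx was under the floor in all 3 leukemias. Mcpt8 lies next to Ctsg, a neutrophil granule protease, which had 32103 with mixed lineage leukemia, 3851 with proB ALL and 3767 with B/T BAL, against 26268 in normal marrow. Both Ctsg and Mcpt8 were highest in mixed lineage leukemia and next in normal marrow.

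Likeness to a member was measured as the Euclidean distance between the 4 log2 values of 2 genes, each centred on its own mean. Over the 4 arrays the genes outside the members nearest to Epx were Aldh1a1, Vpreb1, Slc38a5, Klf1 and Car1, at distances of 1.08 to 1.29, and Prg3 was at 0.66. The leukemia signals of Epx, of Prg3 and of 4 of these 5 genes were all under the floor (Klf1 passed it in mixed lineage leukemia), so these distances show little more than a high signal in normal marrow alone, and their order carries no information. Nearest to Mcpt8 were Fcnb, Hdc, Trp53inp2, Rhou and Mcemp1, at 0.60 to 1.06, with Fcer1a at 0.76 and Ms4a2 at 0.98. In proB ALL Hdc, Trp53inp2, Rhou, Fcer1a and Ms4a2 were under the floor, so that their distances rest in part on such signals.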

How the data were processed

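RNA of 4 mouse samples was hybridised to 1 Affymetrix array each. The deposited values were intensity values on a linear scale, 1 signal per probe set, made by the authors with MAS5, per the submitters' processing notes; neither its version nor its settings are named there. After removal of the top and bottom 2% of probe sets the mean was 1000 on each array, a common global scale. The number of arrays, 1 per group, limits the precision, and no group has replicate error.

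Probe sets were named from GEO's platform annotation: 34945 carried 1 gene symbol, 932 several and 9160 none, and 64 were controls. Signals were analysed as log2(signal + 51.4), the pseudocount being the 25th percentile of all signals without controls. This scale understates the change of dim genes. The probe set of highest mean stood for its gene, which was tested if it exceeded the floor (the median, 189) on some array. No detection calls were used. The tests were limma 3.58.1 in R 4.3.3 (lmFit, eBayes with an intensity trend, Benjamini-Hochberg). They set 3 leukemias against normal marrow (2 residual degrees of freedom) and mixed lineage leukemia against the other 2 leukemias (1 residual degree of freedom). The fits were run on simulated data with equal spread on every array. Such data cannot show whether the lone normal array varies like the leukemias. The labels do not make the leukemias replicates. The p-values rest on the spread between the 3 leukemias, or between proB ALL and B/T BAL, as moderated by eBayes. Single arrays were compared without a test.

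Alternatives were normalization (quantile, 75th percentile), pseudocount, filter, floor, probe set summary, robust and untrended eBayes, and leaving out each leukemia. The members and lists were chosen with earlier results of these data known. Genes named were the members, up to 6 of each list with the largest differences, list genes tied to a member by role or position, and the 5 genes nearest in pattern to Epx and to Mcpt8.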

Additional observations from a re-analysis of the deposited data

Results flagged for a closer look

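For several genes mixed lineage leukemia lay at least 2-fold above normal marrow while another leukemia lay at least 2-fold below it, each on 1 array. These opposite directions were not tested for single pairs of arrays. In log2 terms, Mcpt8 was 7.11 higher in mixed lineage leukemia than in proB ALL and 4.71 higher than in B/T BAL. Fcer1a was 6.14 and 4.50 higher in the same pairs of arrays, Ms4a2 5.78 and 4.31 higher, and Cpa3 3.89 higher in the first pair.

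Genes outside the members showed the same contrast of mixed lineage leukemia over proB ALL and over B/T BAL. Hdc was 6.001 and 4.18 higher in log2 terms, Cd200r3 3.67 and 3.63 (under the floor outside mixed lineage leukemia), Il4 3.01 and 2.38, Gata2 3.14 and 2.35, Spi1 3.46 and 2.54, and Alox5 4.77 and 3.29. Il4 was under the floor in proB ALL and B/T BAL, and Hdc was in proB ALL. Ccl9 was 4.01 higher than in proB ALL, and Lta4h, a leukotriene enzyme, was 2.08 higher than in B/T BAL. Stat5a, a factor of cytokine receptor signalling, ran the other way, with a log2 difference of -2.61 between mixed lineage leukemia and B/T BAL.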

How the results depend on the processing

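Of the 30 log2 differences of the 10 genes from normal marrow, all kept their direction under every alternative run except Cpa3 in B/T BAL, which turned from 0.0044 to -0.033 with 75th percentile scaling. Differences moved by over 1.5-fold for 14 of 30 with a pseudocount of 1, for 15 with one at the 50th percentile, for 14 with signals under the floor raised to it and for 1 with the mean over probe sets. The count of eosinophil genes at least 2-fold lower on all leukemia arrays was 5 with the pseudocount at the 50th percentile or with the floor raised, without Il5ra, and 4 with the filter at the 75th percentile, which left Il5ra and Ccr3 untested. The count of basophil and mast cell genes lower on all arrays was 0 to 3 when 1 leukemia was left out, 3 without mixed lineage leukemia, and 0 otherwise. In limma, genes lower in leukemia than in normal marrow numbered 15 with the pseudocount at the 50th percentile and 23 with robust eBayes, and 0 to 109 with 1 leukemia left out (67 without proB ALL, 109 without B/T BAL). Genes higher numbered 0 to 4 when 1 leukemia was left out, with 4 without proB ALL and 4 without B/T BAL. The cause was not tested. Each fit without 1 leukemia had 1 residual degree of freedom, so its counts are descriptions. Mixed lineage leukemia against AF4-MLL alone gave 2459 higher and 62 lower genes with the floor raised, a setting that gives both AF4-MLL arrays the same value for genes under the floor on both and so removes their spread. No paired analysis was possible because each group had 1 array and the labels carry no replicate numbers. Signals under the floor of 189 set the limit: 4 of the 6 eosinophil genes were under it on every leukemia array.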

Other observations

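Genes beside the members on the chromosome were read out as well; those named here were chosen after their values were seen. Ms4a3, next to Ms4a2 in the RefSeq gene table and known from granulocyte and monocyte precursors, had signals of 33775 on the mixed lineage array, 2575 on the proB ALL array and 2997 on the B/T BAL array, against 17970 on the normal marrow array. Ccr1, a chemokine receptor 2 coding genes from Ccr3, had 13954 on the mixed lineage array, 717 on the proB ALL array and 1229 on the B/T BAL array, against 4241 on the normal marrow array, while Ccr3 was under the floor in all 3 leukemias. Slc43a1, an amino acid transporter near Prg2, had 69.0 with mixed lineage leukemia, 458 with proB ALL and 1503 with B/T BAL, against 6876 in normal marrow. Ackr1, an atypical chemokine receptor near Fcer1a that red cell precursors carry, had 397 on the mixed lineage array, 273 on the proB ALL array and 412 on the B/T BAL array, against 5593 on the normal marrow array. In these pairs Ackr1 and Fcer1a, and Ccr1 and Ccr3, lay on opposite sides of normal marrow in mixed lineage leukemia.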
